A study of Mus musculus with 4 samples.

Results

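Collagens I, III and V are fibrillar collagens, and their chains are encoded in the mouse by Col1a1, Col1a2, Col3a1, Col5a1, Col5a2 and Col5a3. These 6 genes were taken by name out of 27998 genes measured. Collagen I is a heterotrimer of Col1a1 and Col1a2 chains and the main protein of bone, tendon and ligament. Collagen III is a homotrimer of Col3a1 chains, found with collagen I in vessels, skin and the reticular fibres of marrow. Collagen V, built from Col5a1 and Col5a2 chains and in some tissues also from Col5a3 chains, is buried inside collagen I fibrils and is known for controlling how fibrils start and how thick they grow.

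The levels come from single-cell RNA sequencing of stromal cells from mouse bone, in 4 libraries with 1 library per group. Femora and tibiae of C57BL/6 mice were crushed and digested with collagenase, and cells were sorted that carried CD140a and CD51 but not the blood markers CD45 and TER119 or the endothelial marker CD31. The NHD13Tg library is from mice with a Nup98-HoxD13 transgene, a model of myelodysplastic syndrome (MDS), and WT_A1, from wild-type mice, is its control. Abcg2-MDS/AML is the name of the genotype of the other model, of MDS and acute myeloid leukaemia (AML), and the library named Control, from wild-type mice, is set against it. The labels give no promoter for the transgene, no construction of the Abcg2 model, no age and no number of mice per library. Each molecule was counted once through its unique molecular identifier (UMI) near the 3' end of the transcript. Levels are therefore UMIs of a gene per 1e+06 UMIs of a cell type and library (CPM) with no division by transcript length. The efficiency of capture differs between genes, so a ratio of 2 genes is not a ratio of chains, and such ratios are compared only across cell types and libraries.

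Barcodes with at least 2000 UMIs, at least 500 genes and at most 10% mitochondrial UMIs were taken as cells, which gave 5766 in NHD13Tg, 4973 in WT_A1, 5586 in Abcg2-MDS/AML and 5158 in Control. Total UMIs per library lay between 36133716 and 46033790. Cells were assigned to 5 types by the summed UMIs per 10000 of genes that are not among the 6: mesenchymal stromal cells (MSCs, Adipoq, Lepr and Esm1), osteoblasts (Bglap and Bglap2), chondrocytes (Col9a1, Col9a2 and Col9a3), fibroblasts (Dpt, Clec3b and Col14a1) and tendon cells (Thbs4 and Myoc). There were 1803, 631, 154 and 417 MSCs in NHD13Tg, WT_A1, Abcg2-MDS/AML and Control. In the same order there were 141, 92, 6 and 54 osteoblasts, 6, 4, 826 and 971 chondrocytes, 1106, 1296, 532 and 232 fibroblasts, and 492, 506, 955 and 448 tendon cells. Sums over fewer than 20 cells were not used. Osteoblasts were thus described in 3 libraries, chondrocytes in Abcg2-MDS/AML and Control alone, and 17 sums entered the comparison of types. Between 6 and 14 cell barcodes were shared by any 2 libraries.

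Marker lists that the assignment did not use were read in each type. The 9 MSC markers, which include the niche factors Cxcl12 and Kitl, summed to 36570.4 CPM in MSCs of NHD13Tg, 33704.5 in WT_A1 and 32556 in Control, but to 8975 in Abcg2-MDS/AML. The fibroblast markers, at 600.0 to 660.5 CPM in MSCs of the other libraries, stood at 2928 CPM in that library. The 154 MSCs of Abcg2-MDS/AML thus carried less of their own list and more of another, and the folds of the 6 genes over MSCs are also given with that library left out. Tendon cells carried 3966 to 7915 CPM of the tendon list and 8039 to 14491 CPM of the fibroblast list, and they also carried 3161 to 9585 CPM of the chondrocyte list. Osteoblasts carried 8698 to 17409 CPM of the osteoblast list. Chondrocytes carried 16891 CPM of the chondrocyte list in Abcg2-MDS/AML and 37832 in Control.

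The start regions of 4 of the 6 genes are shown because the genes fell into groups that moved together or apart across cell types. The sequences are the 250 bases before the gene start in RefSeq, build GRCm38.p6, written 5' to 3' on the strand of the gene. Capitals mark the motif TATAA, the motif CCAAT or the motif GGGCGG on either strand, and no promoter entry was found for Col1a1 and Col5a2.
Col1a2: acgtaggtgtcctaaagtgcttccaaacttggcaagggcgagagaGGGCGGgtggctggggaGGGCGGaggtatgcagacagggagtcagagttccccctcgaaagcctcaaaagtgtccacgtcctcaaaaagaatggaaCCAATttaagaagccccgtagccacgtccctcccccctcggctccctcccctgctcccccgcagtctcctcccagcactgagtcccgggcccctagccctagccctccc
Col3a1: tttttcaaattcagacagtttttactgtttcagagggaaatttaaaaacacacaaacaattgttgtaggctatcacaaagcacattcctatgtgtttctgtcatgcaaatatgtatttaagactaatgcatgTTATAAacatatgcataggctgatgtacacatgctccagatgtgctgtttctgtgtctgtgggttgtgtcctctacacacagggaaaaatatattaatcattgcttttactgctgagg
Col5a1: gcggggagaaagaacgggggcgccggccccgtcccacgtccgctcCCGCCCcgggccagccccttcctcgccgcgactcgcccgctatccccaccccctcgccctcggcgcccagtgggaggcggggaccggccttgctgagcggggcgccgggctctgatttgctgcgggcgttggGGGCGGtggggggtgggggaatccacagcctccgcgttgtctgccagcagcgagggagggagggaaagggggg
Col5a3: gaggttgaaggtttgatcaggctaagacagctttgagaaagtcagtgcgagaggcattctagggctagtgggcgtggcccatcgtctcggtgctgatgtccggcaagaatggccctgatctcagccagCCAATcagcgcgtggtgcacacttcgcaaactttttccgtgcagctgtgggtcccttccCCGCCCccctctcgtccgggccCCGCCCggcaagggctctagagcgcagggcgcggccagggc
They lie at chr6:4505368-4505617 on the plus strand for Col1a2, chr1:45311288-45311537 on the plus strand for Col3a1, chr2:27886175-27886424 on the plus strand for Col5a1 and chr9:20815068-20815317 on the minus strand for Col5a3. Only the Col3a1 window held TATAA, with 2 overlapping matches that form the run TTATAA, and it held neither CCAAT nor GGGCGG. Col1a2, Col5a1 and Col5a3 held 2 matches of GGGCGG each, and Col1a2 and Col5a3 also held 1 CCAAT each. Over 32851 RefSeq windows of this length, 22.8% held TATAA, 33.8% CCAAT and 32.7% GGGCGG. Col3a1 and Col5a2 are neighbours on chromosome 1 with no protein-coding gene between them, and the other 4 genes lie on chromosomes 11 (Col1a1), 6, 2 and 9. The genome build of the counts is not given in the sources used here, so these positions were not set against them.

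Osteoblasts gave these genes a far larger share of their transcripts than any other type. The 6 genes took 19.1% of osteoblast UMIs in NHD13Tg, 18.5% in WT_A1 and 16.0% in Control. In fibroblasts they took 1.11% in NHD13Tg, 1.75% in WT_A1, 0.570% in Abcg2-MDS/AML and 1.44% in Control. Tendon cells gave 0.907%, 1.25%, 0.279% and 1.08% in the same order, and MSCs 0.240%, 0.228%, 0.141% and 0.219%. Chondrocytes held 0.0258% in Abcg2-MDS/AML and 0.188% in Control. The share was below that of the other libraries in Abcg2-MDS/AML in every type it could be read in. In 27 blood-like barcodes of Control the share was 0.00783%.

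Col1a1 and Col1a2, the chains of collagen I, were highest in osteoblasts by a wide margin. Col1a1 stood at 101766 CPM in osteoblasts of NHD13Tg, 95799.7 in WT_A1 and 85511 in Control. Col1a2 stood at 85562, 85798 and 71092 CPM in the same libraries. No other type came near these levels in any library. Fibroblasts held 2603, 4339.8, 1052 and 3119.8 CPM of Col1a1 in NHD13Tg, WT_A1, Abcg2-MDS/AML and Control, and tendon cells 3076, 4306, 689 and 4139 CPM. For Col1a2, fibroblasts held 3334, 4503, 2449 and 3564 CPM and tendon cells 3572, 4521, 1314 and 4359.5 CPM. Fibroblasts and tendon cells overlapped over libraries in both genes, and both types stood apart from osteoblasts.

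In MSCs and chondrocytes more Col1a2 than Col1a1 was counted. Col1a1 was at 511 CPM in MSCs of NHD13Tg, 354 in WT_A1, 119.8 in Abcg2-MDS/AML and 235 in Control. Col1a2 was at 1364, 1389, 890.0 and 1386 CPM in the same MSCs. Among MSCs thinned to 2000 UMIs each, 86.1%, 86.5%, 68.8% and 90.4% held a Col1a2 molecule and 45.4%, 35.8%, 14.3% and 24.5% a Col1a1 molecule. Before thinning these shares were 96.5%, 96.5%, 79.2% and 96.6% for Col1a2 and 67.7%, 59.9%, 22.1% and 39.3% for Col1a1. In the 27 blood-like barcodes of Control, which should lack both genes, 11.1% held Col1a2 and 3.7% Col1a1 after thinning. Their median before thinning was 8768 UMIs, against 3554 UMIs in the MSCs of Control. The 15 such barcodes of NHD13Tg and 8 of WT_A1 were too few to be thinned. Of their 111279 and 173099 UMIs, 52 and 27 were Col1a1 and 27 and 36 were Col1a2. In chondrocytes Col1a2 reached 159.6 CPM in Abcg2-MDS/AML and 951 CPM in Control, and Col1a1 26.5 and 498 CPM. Few chondrocytes carried the Col1a1, as the top 1% of cells held 63.5% of its UMIs in Abcg2-MDS/AML and 56.9% in Control. After thinning 3.15% and 14.1% of these chondrocytes held a Col1a1 molecule, and 9.69% and 26.8% did before it. For Col1a2 the top 1% held 22.4% and 19.5%.

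RNA outside cells carried collagen I too and bears on the low levels. In barcodes of 1 to 100 UMIs Col1a1 stood at 17549 CPM in NHD13Tg, 11016 in WT_A1, 976 in Abcg2-MDS/AML and 2440.3 in Control. The most free RNA that the osteocalcin genes Bglap and Bglap2 allow in Control chondrocytes was 17.5% of their UMIs, which would carry 427 of their 498 CPM of Col1a1. Of these chondrocytes 14.1% held a Col1a1 molecule after thinning, and the top 1% held 56.9% of its UMIs, so it was not spread evenly over them. For Col1a2 the same bound was 378 of 951 CPM. In fibroblasts the bound on Col1a1 lay between 7.32 CPM in Abcg2-MDS/AML and 216 CPM in WT_A1, beside measured levels of 1052 and 4339.8 CPM. In MSCs it was 136, 121, 16.2 and 126 CPM in NHD13Tg, WT_A1, Abcg2-MDS/AML and Control. In tendon cells it was 558, 865, 22.1 and 399 CPM. Bglap counted in a cell may also be its own, so these bounds are upper limits. Differences between types with the bounds subtracted are given below and in the closing section. As the bounds are upper limits, these values do not measure the part of free RNA.

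**Figure D1:**
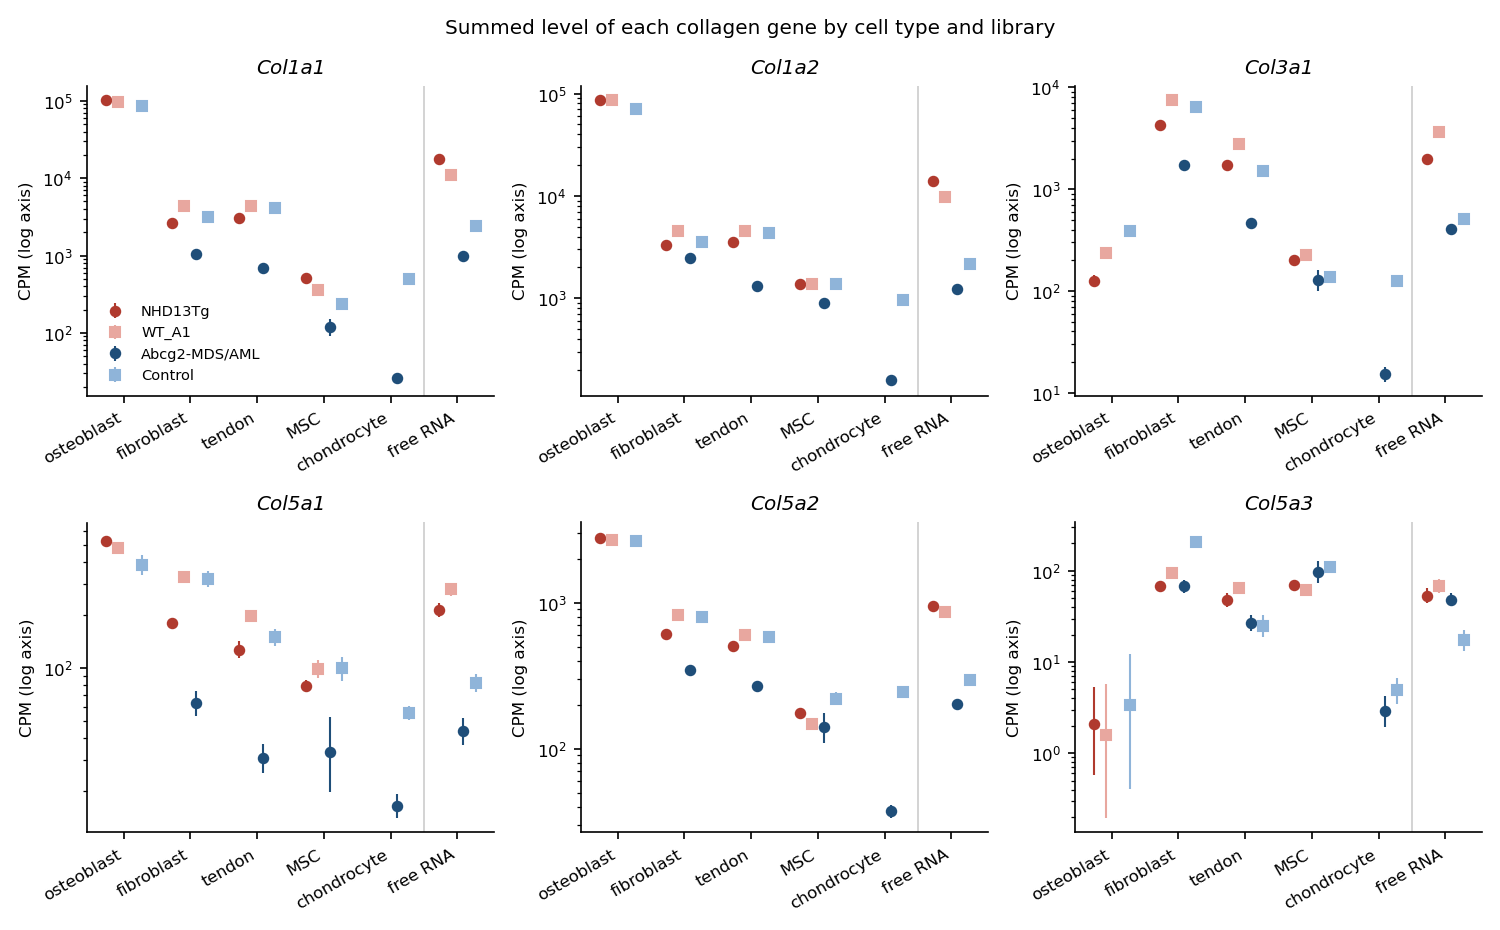
Summed level of each gene in CPM (log axis) by cell type and library, with free RNA at the right of each panel. Bars are exact 95% Poisson intervals and cover counting error only. The osteoblast points of Col1a1, Col1a2, Col5a1 and Col5a2 lie above all other types, while those of Col3a1 and Col5a3 lie below fibroblasts and tendon cells.

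The difference between types was tested with edgeR on the summed counts, with the library as a block, so that it was measured against the spread over libraries. Every type was cut from the same libraries by a threshold on its marker genes, so a test compares the cells on either side of such thresholds. All 6 genes differed between osteoblasts and fibroblasts, 4 of them higher in osteoblasts and 2 lower, where 17.5% of 11726 genes tested were called higher and 20.4% lower. Col1a1 was higher in osteoblasts by 4.99 ± 0.42 on the log2 scale (SE, edgeR adjusted p = 6.29e-07) and Col1a2 by 4.61 ± 0.30 (edgeR adjusted p = 7.26e-08). Over tendon cells, where 15.4% of genes were called higher and 19.9% lower, the same 4 genes were higher and the same 2 lower, with log2 folds of 4.90 ± 0.42 for Col1a1 and 4.64 ± 0.30 for Col1a2. Over MSCs, where 19.7% and 24.4% of genes were called higher and lower, Col1a1 was higher by 8.33 ± 0.48 (edgeR adjusted p = 1.87e-08) and Col1a2 by 6.21 ± 0.32 (edgeR adjusted p = 7.33e-09). Without Abcg2-MDS/AML these folds over MSCs were 8.45 and 6.31, both still called. Of the 60 tests of a gene in a contrast of types, 48 were called, 43 higher and 5 lower in the type named first, and the 5 lower ones were all Col3a1 or Col5a3 in osteoblasts.

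Col3a1, the chain of collagen III, had a different order. It was highest in fibroblasts, at 4284 CPM in NHD13Tg, 7453 in WT_A1, 1719.9 in Abcg2-MDS/AML and 6367 in Control. Tendon cells held 1746, 2785, 465 and 1519 CPM in the same order. Osteoblasts, at 125 CPM in NHD13Tg, 236 in WT_A1 and 392 in Control, were close to MSCs, at 201, 224, 127 and 138 CPM in NHD13Tg, WT_A1, Abcg2-MDS/AML and Control. Osteoblasts and MSCs thus overlapped in Col3a1, while they stood far apart in collagen I. Col3a1 was lower in osteoblasts than in fibroblasts by a log2 fold of -4.29 ± 0.40 (edgeR adjusted p = 1.40e-06) and lower than in tendon cells by -2.76 ± 0.37 (edgeR adjusted p = 5.17e-05). Its difference between osteoblasts and MSCs, a log2 fold of 0.48 ± 0.36, was not called (edgeR adjusted p = 0.308), was called without Abcg2-MDS/AML (0.74, edgeR adjusted p = 0.0477) and was -0.04 without Control.

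Much of the Col3a1 in osteoblasts came from few cells. In NHD13Tg 1 osteoblast held 36.6% of the Col3a1 UMIs of the type, against 16.2% for the top cell in WT_A1, and in Control the top cell held 21.1%. After thinning, 9.9%, 18.5% and 24.1% of osteoblasts in NHD13Tg, WT_A1 and Control held a Col3a1 molecule, while 84.4%, 89.3% and 94.0% of fibroblasts in the same libraries did. Across single osteoblasts the Spearman correlation of Col1a1 with Col3a1 was -0.35 over 141 cells of NHD13Tg, -0.39 over 92 of WT_A1 and -0.34 over 54 of Control. Across fibroblasts it was 0.60 in NHD13Tg, 0.70 in WT_A1, 0.54 in Abcg2-MDS/AML and 0.57 in Control. These correlations describe cells of 1 library that share its depth and free RNA, and they carry no test. The bound on free RNA in osteoblasts, read from the Col9 genes, allowed 119.9 of the 125 CPM of Col3a1 in NHD13Tg and 212 of 236 CPM in WT_A1, but 3.097 of 392 CPM in Control. The bounds rest on 4.21 CPM of the Col9 genes in osteoblasts of NHD13Tg, 1.59 in WT_A1 and 28.7 in Control. In NHD13Tg and WT_A1 these are few counts, so the bounds there are imprecise. With these bounds subtracted the log2 fold of Col3a1 in osteoblasts was -6.18 against fibroblasts and -1.36 against MSCs, values that carry the same imprecision.

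Fibroblasts differed from tendon cells in Col3a1, Col5a1 and Col5a3, and not detectably in collagen I. Col3a1 was higher in fibroblasts by a log2 fold of 1.53 ± 0.31 (edgeR adjusted p = 0.00733), Col5a1 by 0.73 ± 0.20 (edgeR adjusted p = 0.0346) and Col5a3 by 1.15 ± 0.30 (edgeR adjusted p = 0.0287), where 3.62% of genes were called higher and 3.98% lower. Col1a1 differed by -0.09 ± 0.34, Col1a2 by 0.03 ± 0.25 and Col5a2 by 0.28 ± 0.23, none of them called (edgeR adjusted p = 0.953, 0.989 and 0.585). The 3 calls depended on which libraries were kept. Col3a1 lost its call without WT_A1 (edgeR adjusted p = 0.0594), Col5a1 lost it without any 1 of the 4 libraries (0.0577 to 0.158), and Col5a3 lost it without NHD13Tg, Abcg2-MDS/AML or Control (0.0628 to 0.122). Col5a3 differed by 0.70 without Control. All 3 calls were also lost without the library block, with free RNA subtracted, and when barcodes that met several type rules were kept. Barcodes that met both the fibroblast and the tendon rule numbered 635 in NHD13Tg, 767 in WT_A1, 125 in Abcg2-MDS/AML and 125 in Control. Tendon cells kept numbered 492, 506, 955 and 448, so the contrast compares the cells that met only 1 of these rules.

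Collagen V split into chains that followed collagen I and a chain that did not. Col5a2 stood at 2752 CPM in osteoblasts of NHD13Tg, 2678 in WT_A1 and 2633 in Control. Fibroblasts held 607, 818, 346 and 799 CPM of Col5a2 in NHD13Tg, WT_A1, Abcg2-MDS/AML and Control, tendon cells 504, 600.2, 268 and 586 CPM, and MSCs 175, 147, 140.0 and 220.3 CPM. Every osteoblast value lay above every value of the other types. Col5a1 had the same top but a narrower span, at 523, 479 and 384 CPM in osteoblasts of NHD13Tg, WT_A1 and Control. Fibroblasts held 180.4, 329, 62.9 and 320.0 CPM of Col5a1, tendon cells 127, 197, 30.8 and 149 CPM, and MSCs 79.3, 98.9, 33.2 and 99.5 CPM, in NHD13Tg, WT_A1, Abcg2-MDS/AML and Control. Osteoblasts exceeded fibroblasts by a log2 fold of 2.22 ± 0.26 in Col5a2 (edgeR adjusted p = 1.04e-05) and 1.19 ± 0.21 in Col5a1 (edgeR adjusted p = 4.96e-04), the last not called without the library block (1.42, edgeR adjusted p = 0.0525). Against MSCs the log2 folds were 4.21 ± 0.28 in Col5a2 and 2.76 ± 0.23 in Col5a1, and without Abcg2-MDS/AML they were 4.35 and 2.80.

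Col5a3 was nearly absent from osteoblasts. Only 4 UMIs of it were counted in osteoblasts of NHD13Tg, 2 in WT_A1 and 2 in Control, which is 2.11, 1.59 and 3.38 CPM. The bound on free RNA was 3.22 CPM in NHD13Tg and 3.98 in WT_A1, above the measured levels, and 0.105 in Control. It is as imprecise here as for Col3a1. MSCs held 70.9, 62.4, 97.7 and 109.8 CPM in NHD13Tg, WT_A1, Abcg2-MDS/AML and Control, fibroblasts 68.5, 93.7, 67.5 and 208 CPM, and tendon cells 48.0, 65.0, 26.7 and 25.1 CPM. The ranges of MSCs and fibroblasts overlapped, and neither reached down to osteoblasts. Col5a3 was lower in osteoblasts by a log2 fold of -4.77 ± 0.59 against MSCs (edgeR adjusted p = 1.54e-05), -5.18 ± 0.57 against fibroblasts (edgeR adjusted p = 6.40e-06) and -4.03 ± 0.61 against tendon cells (edgeR adjusted p = 1.34e-04). It was the sole gene of the 6 not called between fibroblasts and MSCs (log2 fold 0.41 ± 0.29, edgeR adjusted p = 0.288), where 20.1% of genes were called higher and 21.7% lower and the other 5 were higher in fibroblasts. The 5 ranged from 1.57 for Col5a1 to 4.77 for Col3a1. Without Abcg2-MDS/AML Col5a3 was at -4.66 in osteoblasts over MSCs, still called, and at 0.57 in fibroblasts over MSCs, not called (edgeR adjusted p = 0.151), and the other 5 stayed called in fibroblasts over MSCs, from 1.54 for Col1a2 to 5.04 for Col3a1.

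Tendon cells against MSCs gave the same division, with 5 genes higher and Col5a3 not called (log2 fold -0.75 ± 0.30, edgeR adjusted p = 0.0637), where 21% of genes were called higher and 20.7% lower. Without WT_A1 Col5a3 was called lower in tendon cells (-1.15, edgeR adjusted p = 0.0312), and Col5a1, at 0.84 ± 0.21 with all libraries, was no longer called (0.71, edgeR adjusted p = 0.0685). Col1a1 at 3.42 ± 0.38 and Col3a1 at 3.24 ± 0.34 were the largest of these differences. Without Abcg2-MDS/AML the 5 genes were called at 0.97 for Col5a1 to 3.63 for Col1a1, and Col5a3 was at -0.53 (edgeR adjusted p = 0.216).

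Chondrocytes, whose own fibrillar collagen is Col2a1, were lower than fibroblasts and tendon cells in all 6 genes. Against chondrocytes, where 18.4% of genes were called higher and 20.3% lower in fibroblasts, all 6 genes were higher in fibroblasts, with log2 folds from 1.72 for Col5a1 to 5.77 for Col3a1. All 6 were also higher in tendon cells (0.99 to 4.24), where 16.3% were called higher and 16.6% lower. Osteoblasts were higher in 5 of the 6, where 13.6% were called higher and 18.5% lower, by 8.22 ± 0.66 for Col1a1 and 1.47 ± 0.44 for Col3a1, while Col5a3 was not called (-0.83, edgeR adjusted p = 0.489). MSCs exceeded chondrocytes in Col5a3 alone, by 3.94 ± 0.47 (edgeR adjusted p = 1.30e-05), where 21.5% were called higher and 22.8% lower. Osteoblasts and chondrocytes met in a single library, Control.

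The chondrocyte contrasts leaned on that library and on Abcg2-MDS/AML, whose chondrocytes were lower in 5 of the genes. Without Control, the log2 folds of osteoblasts over chondrocytes became 9.73 for Col1a1, 7.96 for Col1a2 and 5.25 for Col5a2, and without Abcg2-MDS/AML that of Col1a1 became 7.44 and that of Col3a1 became 0.997 and was not called (edgeR adjusted p = 0.111). For fibroblasts, leaving out Control gave 4.61 for Col1a1, 3.24 for Col1a2, 6.38 for Col3a1 and 2.87 for Col5a2, and leaving out Abcg2-MDS/AML gave 2.27 for Col1a1 and 1.64 for Col1a2. For tendon cells, leaving out Control gave 4.53 for Col1a1, 3.04 for Col1a2, 4.92 for Col3a1 and 2.56 for Col5a2, and ended the call of Col5a1 (0.71, edgeR adjusted p = 0.129). Leaving out Abcg2-MDS/AML gave 2.62 for Col1a1 in tendon cells. For MSCs, leaving out Control made Col1a1, Col1a2, Col3a1 and Col5a2 higher than in chondrocytes (1.41, 1.57, 1.80 and 0.83, edgeR adjusted p = 0.0136, 0.00222, 0.00552 and 0.0463). Leaving out Abcg2-MDS/AML instead made Col5a2 lower in MSCs (-0.74, edgeR adjusted p = 0.0306), so the order of MSCs and chondrocytes in these genes was not settled.

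The ratio of Col1a1 to Col1a2 UMIs separated the cell types. In osteoblasts it was 1.19 in NHD13Tg, 1.12 in WT_A1 and 1.20 in Control. It was 0.781, 0.964, 0.430 and 0.875 in fibroblasts of NHD13Tg, WT_A1, Abcg2-MDS/AML and Control, and 0.861, 0.952, 0.525 and 0.9495 in tendon cells. MSCs had 0.375, 0.255, 0.135 and 0.170. Chondrocytes had 0.166 in Abcg2-MDS/AML and 0.524 in Control. Every osteoblast value lay above every value of the other types, every MSC value lay below those of fibroblasts and tendon cells, and in each type the ratio was lowest in Abcg2-MDS/AML. The exact 95% interval, which covers counting error only, reached from 0.102 to 0.175 for the 65 Col1a1 UMIs in MSCs of Abcg2-MDS/AML. Free RNA had ratios of 1.25, 1.12, 0.791 and 1.13, above those of MSCs in every library.

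**Figure D2:**
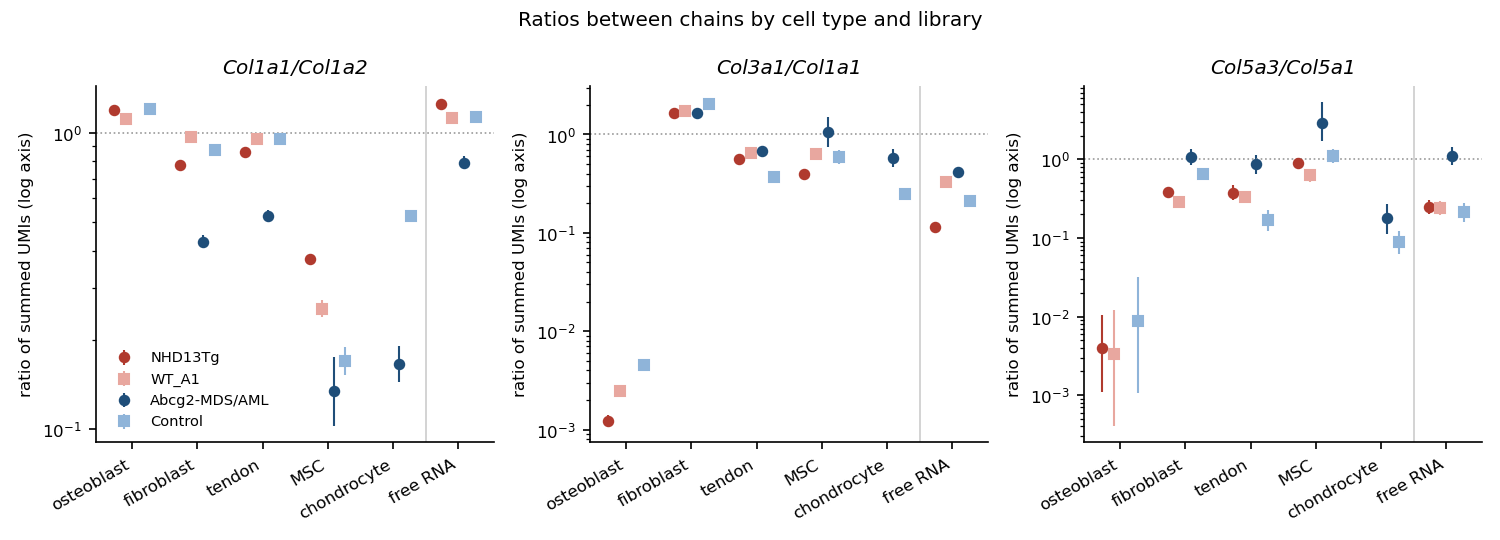
Ratios of summed UMIs (log axis) between genes by cell type and library, with exact 95% intervals for counting error. Col1a1/Col1a2 lies above 1 in osteoblasts and between 0.135 and 0.375 in MSCs, Col3a1/Col1a1 lies above 1 in fibroblasts in all 4 libraries, and Col5a3/Col5a1 is lowest in osteoblasts.

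The ratio of Col3a1 to Col1a1 varied little among fibroblasts. It was 1.65 in NHD13Tg, 1.72 in WT_A1, 1.64 in Abcg2-MDS/AML and 2.04 in Control, although Col3a1 itself spanned 1719.9 to 7453 CPM over the same sums. Tendon cells had 0.568, 0.647, 0.674 and 0.367, below all fibroblast values, and MSCs 0.393, 0.632, 1.06 and 0.587. In osteoblasts it was 0.00123 in NHD13Tg, 0.00246 in WT_A1 and 0.00458 in Control. With barcodes that met several type rules kept, the ratio in tendon cells of WT_A1 became 1.08.

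Within collagen V, Col5a1 to Col5a2 was 0.190, 0.179 and 0.146 in osteoblasts of NHD13Tg, WT_A1 and Control. MSCs had 0.454, 0.674, 0.237 and 0.452, each above the osteoblasts of any library. Col5a3 to Col5a1 was 0.893, 0.631, 2.94 and 1.10 in MSCs of NHD13Tg, WT_A1, Abcg2-MDS/AML and Control, with an interval from 1.70 to 5.34 in Abcg2-MDS/AML, where 18 UMIs of Col5a1 were counted. It lay between 0.00332 and 0.00881 in osteoblasts. Set against collagen I, Col5a2 was 0.0322, 0.0312 and 0.0370 of Col1a2 in osteoblasts of NHD13Tg, WT_A1 and Control, and 0.106 to 0.259 in the sums of all other types. Osteoblasts were therefore highest in Col5a2 by level and lowest in Col5a2 relative to Col1a2.

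Single osteoblasts varied widely in collagen I. After thinning to 2000 UMIs the median osteoblast held 188 Col1a1 UMIs in NHD13Tg, 174.5 in WT_A1 and 155.5 in Control, and the 10th percentile of cells was 35, 16 and 10.8. The median fibroblast held 2, 3, 0 and 4 Col1a1 UMIs in NHD13Tg, WT_A1, Abcg2-MDS/AML and Control, and the median MSC held 0 in all 4. Col1a1 and Col1a2 went together across osteoblasts, with Spearman correlations of 0.82, 0.89 and 0.88 in NHD13Tg, WT_A1 and Control. In fibroblasts, where counts per cell were far lower, the values were 0.61, 0.72, 0.58 and 0.70 in NHD13Tg, WT_A1, Abcg2-MDS/AML and Control.

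**Figure D3:**
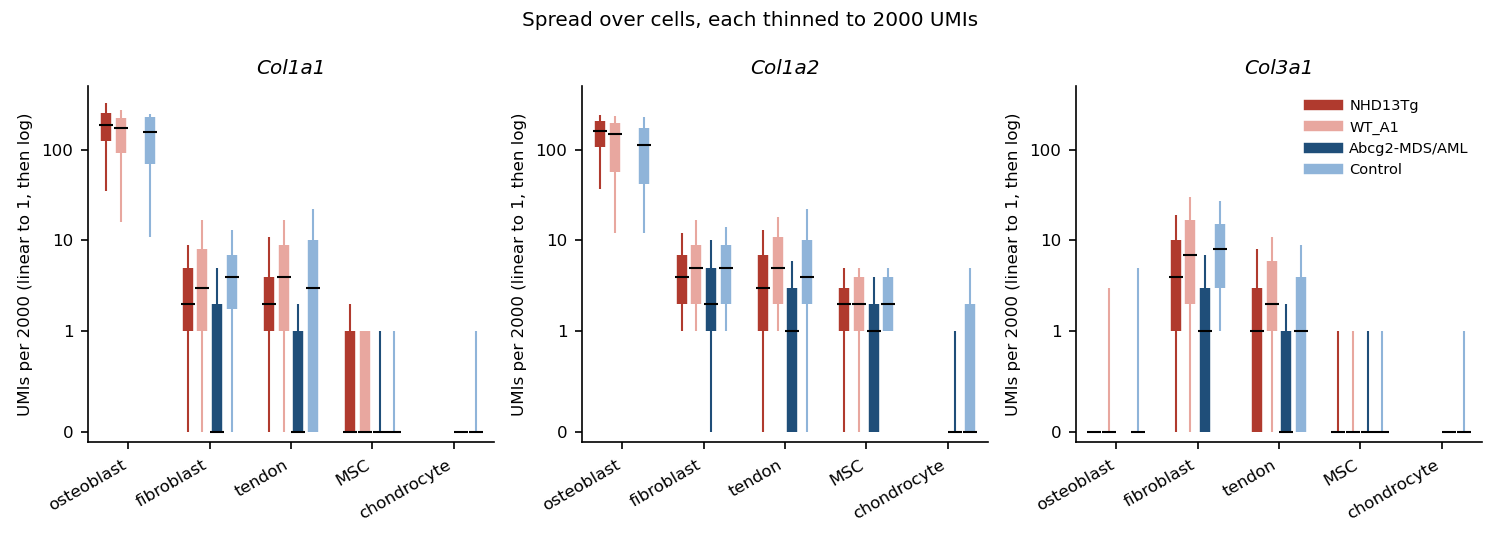
Spread over single cells of Col1a1, Col1a2 and Col3a1 in UMIs per 2000 (linear to 1, then log), by type and library. Thin lines span the 10th to 90th percentile of cells, thick lines the 25th to 75th, and the dash is the median. The thin lines of osteoblasts lie above 10 for Col1a1 and Col1a2 in all 3 libraries, and the median for Col3a1 is 0.

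Over the 17 sums, Col1a1 followed Col5a2 and Col1a2 most closely of the 6, with Pearson r of 0.984 and 0.979 on log2(CPM + 10). Col5a1 had r = 0.916 with Col5a2. Col3a1 had r = 0.325 with Col1a1, 0.403 with its neighbour Col5a2 and 0.563 with Col5a3, and Col5a3 had -0.372 with Col1a1. The sums of a library share its depth and free RNA, so these values are descriptions. Among 4598 genes with at least 50 CPM in 1 sum, those most like Col1a1 were Ptprs (0.965), Prcp (0.952) and Ufc1 (0.952), and those most like Col1a2 were Prcp (0.981), Ptprs (0.970) and Fkbp7 (0.959). Ptprs, a receptor tyrosine phosphatase, had a median of 342 CPM in osteoblasts and 82.2 in fibroblasts. Col5a2 was most like Ufc1 (0.957), Ptprs (0.954) and Prcp (0.949), and Col5a1 most like Sec61a1 (0.977), a subunit of the channel through which secreted proteins enter the endoplasmic reticulum, Sf3b5 (0.964) and Ndufa1 (0.959). Col3a1 was most like Ccdc109b (0.944), Aprt (0.942) and Npdc1 (0.937). Col5a3 was most like Fbn1 (0.960), which encodes the microfibril protein fibrillin and had medians of 454 CPM in fibroblasts, 410 in MSCs and 5.6 in osteoblasts, then Aida (0.951) and Tmx3 (0.942).

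More genes of collagen synthesis were higher than lower in osteoblasts. Of 32 genes listed for chain hydroxylation, folding, export and trimming, 29 were tested, and 17 were higher and 3 lower in osteoblasts than in MSCs, with a median log2 fold of 0.82 beside -0.12 over all genes. Of all genes 19.7% were called higher in that contrast and 24.4% lower. Against fibroblasts 16 were higher and 4 lower (17.5% and 20.4% of all genes), and against tendon cells 17 and 5 (15.4% and 19.9%). Against chondrocytes 10 were higher and 6 lower (13.6% and 18.5%), with a median of 0.22. Chondrocytes also exceeded other types in this list, as 17 genes were lower and 5 higher in MSCs than in chondrocytes. In fibroblasts 16 were lower and 4 higher than in chondrocytes, and in tendon cells 15 and 2. Serpinh1, the collagen chaperone HSP47, stood at 2832 CPM in osteoblasts of NHD13Tg, 3134 in WT_A1 and 2535 in Control, against 662, 848, 221 and 804 CPM in MSCs of NHD13Tg, WT_A1, Abcg2-MDS/AML and Control. It was higher by a log2 fold of 2.28 ± 0.18 (edgeR adjusted p = 3.29e-07), Plod2, a lysyl hydroxylase, by 2.54 ± 0.27 (3.52e-06), P4hb, the β subunit of prolyl 4-hydroxylase, by 0.84 ± 0.19 (0.00201), and Ppib, a prolyl isomerase, by 0.71 ± 0.15 (0.00114). The genes lower in osteoblasts than in MSCs were P3h2, a prolyl 3-hydroxylase, at -4.49 ± 0.65, Tmem38b at -1.28 ± 0.35 and Plod3 at -1.04 ± 0.19. Without Abcg2-MDS/AML 18 genes of the list were higher and 3 lower than in MSCs, where 20.1% of all genes were called higher and 25.7% lower, and Serpinh1 was at 2.33, Plod2 at 2.69, P4hb at 0.95 and Ppib at 0.69.

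The genes that finish and cross-link fibrils were less uniform. Of 5 cross-linking enzymes of the lysyl oxidase family, Lox (1.07 ± 0.33, edgeR adjusted p = 0.0176) and Loxl4 (3.58 ± 0.47) were higher in osteoblasts than in MSCs and Loxl1 was lower (-3.59 ± 0.32). Without Abcg2-MDS/AML these were at 0.83, 3.62 and -3.62, all called. Of 5 other fibrillar collagens 4 were higher and 1, Col27a1, lower. Col11a1 was at 3167, 3959 and 4479 CPM in osteoblasts of NHD13Tg, WT_A1 and Control and at 19.6, 26.8, 73.7 and 185 CPM in MSCs of NHD13Tg, WT_A1, Abcg2-MDS/AML and Control, a log2 fold of 6.97 ± 0.59, or 7.09 without Abcg2-MDS/AML. Col11a2 was higher by 8.09 ± 0.61 and Col2a1, a cartilage gene at 457 to 1623 CPM in osteoblasts and 8942 to 24615 CPM in chondrocytes, by 6.34 ± 1.06. Of 14 fibril-associated genes tested, 11 were lower in osteoblasts than in fibroblasts and 2 higher, where 20.4% of all genes were called lower and 17.5% higher. The list holds Dpt, a gene of the fibroblast rule, so the direction of Dpt was fixed by the assignment of types. Dcn, the proteoglycan decorin, was lower by -1.34 ± 0.49 and Fn1, fibronectin, by -3.36 ± 0.31, while Bgn, biglycan, was higher by 0.61 ± 0.14.

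Receptors, enzymes of turnover and regulators moved both ways between osteoblasts and MSCs, with 4 of 12 higher and 3 lower in each list. Of all genes 19.7% were called higher there and 24.4% lower, so the lower counts are near the share over all genes. Ctsk, the collagen-degrading protease cathepsin K, was higher by 0.88 ± 0.23 and Itga1, a collagen-binding integrin chain, lower by -5.04 ± 0.23. Sp7, a transcription factor of osteoblasts that was also a marker here, was higher by 3.49 ± 0.40, and Ctgf lower by -2.58 ± 0.23. Fibroblasts against MSCs had 7 genes of the biosynthesis list higher and 4 lower of 29. Of the higher ones, Pcolce2 (4.89 ± 0.37) and Pcolce (1.13 ± 0.27), which enhance trimming of the procollagen end, had the highest mean CPM over types. P4ha3 was higher by 4.61 ± 0.35. In that contrast 20.1% of all genes were called higher and 21.7% lower, so these list counts are near the shares over all genes. Without Abcg2-MDS/AML 10 were higher and 6 lower, where 21.2% and 23.5% of all genes were.

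**Figure D4:**
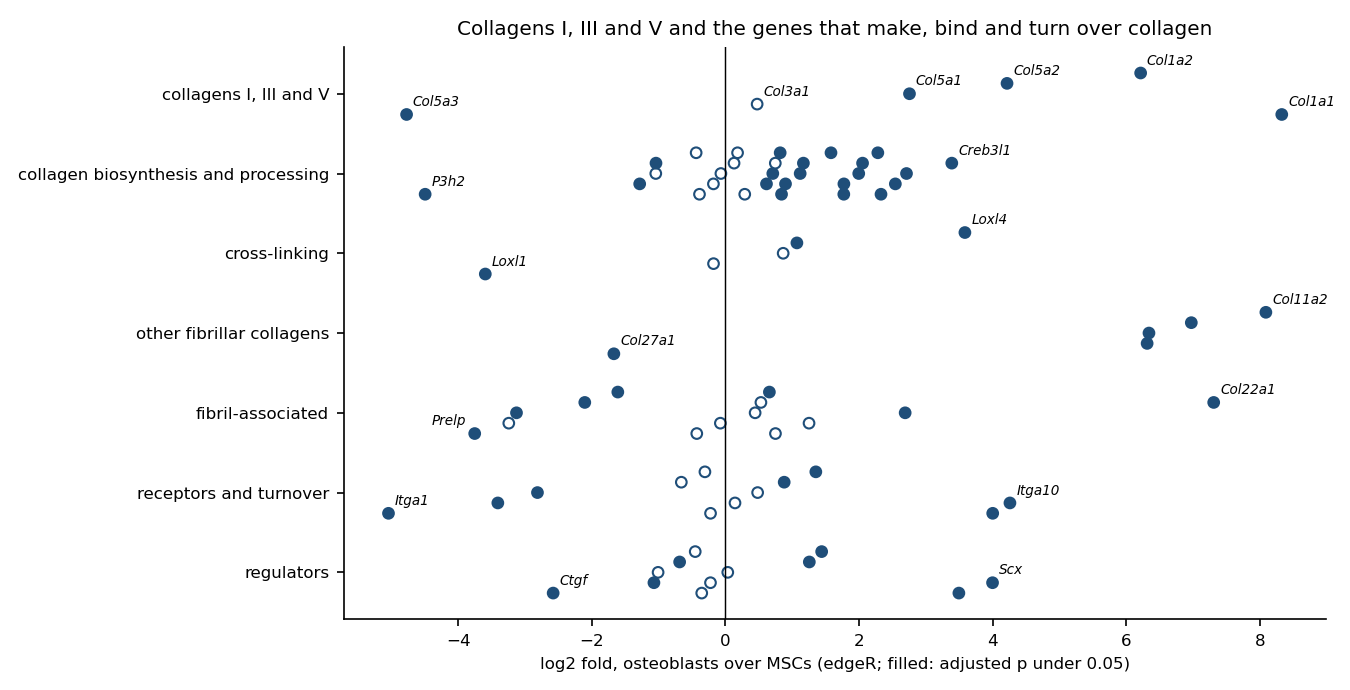
Log2 fold in osteoblasts over MSCs (edgeR) for the 6 genes and for 77 genes of 6 lists, 1 row per list, with filled points at adjusted p under 0.05. Points are spread vertically within a row for legibility, and the lowest and highest gene of each row are named. Col1a1 at 8.33 and Col5a3 at -4.77 mark the ends of the top row, and 17 of the 29 points of the biosynthesis row are filled on the right.

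Differences within a pair of libraries have no replicate check, and the intervals below cover counting error only. A gene was counted as higher or lower when its CPM differed by at least 1.5-fold with an interval that left out a ratio of 1, among genes that reached 20 CPM in either library. The sums alone do not tell fewer expressing cells from less RNA per cell, so shares of thinned cells with a molecule are given beside some of them. Such a share can fall with either. A difference between libraries cannot be told apart from one between genotypes.

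In NHD13Tg against WT_A1, 0 of 23 combinations of gene and cell type were higher and 6 were lower. The lower ones lay in fibroblasts, tendon cells and osteoblasts. In fibroblasts, where 3.53% of 5614 genes were lower and 1.69% higher, Col1a1 was at 2603 CPM in NHD13Tg and 4339.8 in WT_A1, a log2 ratio of -0.74 (95% interval -0.76 to -0.71). Col3a1 was at 4284 CPM in NHD13Tg and 7453 in WT_A1, a log2 ratio of -0.80 (-0.82 to -0.78), and Col5a1 at 180.4 and 329 CPM, a log2 ratio of -0.87 (-0.96 to -0.77). Col1a2, Col5a2 and Col5a3 were lower by less, at -0.43, -0.43 and -0.45. All 6 fibroblast ratios were therefore below 1, and the median over all genes was -0.06. After thinning, 75.5% of fibroblasts in NHD13Tg and 83.6% in WT_A1 held a Col1a1 molecule, and 84.4% and 89.3% a Col3a1 molecule. The median cell held 2 and 3 UMIs of Col1a1 and 4 and 7 of Col3a1. Other lists moved in the same class. The osteoblast list was at 342 CPM in fibroblasts of NHD13Tg and 698 in WT_A1, and the fibroblast list at 20082 and 16505 CPM, and their part in the ratios was not tested.

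In tendon cells, where 7.41% of genes were lower and 3.1% higher, Col3a1 was at 1746 CPM in NHD13Tg and 2785 in WT_A1 (log2 ratio -0.67, -0.73 to -0.62). Col5a1 was at 127 CPM in NHD13Tg and 197 in WT_A1 (-0.63, -0.84 to -0.43). The other 4 genes lay between -0.49 and -0.25. In osteoblasts, where 6.11% of genes were lower and 5.21% higher, collagen I was close to level. Col1a1 gave a log2 ratio of 0.09 (0.08 to 0.10) and Col1a2 an interval from -0.02 to 0.01. Col3a1 there was at 125 CPM in NHD13Tg and 236 in WT_A1 (-0.91, -1.16 to -0.66), on 238 and 296 UMIs. In MSCs, where 4.43% of genes were higher and 7.98% lower, no gene passed the rule. Col1a1 came closest, at 511 CPM in NHD13Tg and 354 in WT_A1, which is 1.44-fold (log2 ratio 0.53, 0.43 to 0.63).

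The makeup of the fibroblast class also differed, in a split chosen after the data had been seen. Fibroblasts with Pi16 or Dpp4, markers known from fibroblast progenitors, were 27.2% of fibroblasts in NHD13Tg and 20.1% in WT_A1. In them Col1a1 was at 1127 CPM in NHD13Tg and 1601 in WT_A1 (-0.51), Col3a1 at 2939 and 3747 CPM (-0.35) and Col5a1 at 165 and 238 CPM (-0.53), and none passed 1.5-fold. In the remaining fibroblasts the 3 genes were lower in NHD13Tg, at -0.63, -0.78 and -0.90. In tendon cells with Tnmd or Kera, Col3a1 and Col5a1 did not pass (-0.12 and -0.14), while Col1a1 (-0.69), Col1a2 (-0.60) and Col5a3 (-2.21) did. Shares over all genes are not given for these parts of the classes. The Col5a1 call in tendon cells was also lost with TMM scaling (-0.55), and the Col3a1 call in osteoblasts at 4000 UMIs per cell (-0.48) or at most 5% mitochondrial UMIs (-0.56). Col1a1 in MSCs passed as higher in NHD13Tg with TMM scaling (0.64), with cells thinned (0.70) and with free RNA subtracted (0.68).

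In Abcg2-MDS/AML against Control, 0 of 23 combinations were higher and 19 were lower. Chondrocytes showed the widest gap. Col1a1 was at 26.5 CPM in Abcg2-MDS/AML and 498 in Control, 18.8-fold lower (log2 ratio -4.23, -4.43 to -4.05), in a class where 32.2% of 5014 genes were lower, 7.76% higher and the median over all genes was -0.31. Col1a2 was at 159.6 CPM in Abcg2-MDS/AML and 951 in Control (-2.57), Col3a1 at 15.2 and 125 CPM (-3.03), Col5a1 at 16.5 and 55.7 CPM (-1.75) and Col5a2 at 37.2 and 246 CPM (-2.72). The bound on free RNA was 83.8 CPM for Col1a1 in Abcg2-MDS/AML, above the measured level, and 427 CPM in Control. Marker lists moved in these chondrocytes too. Their own list was at 16891 CPM in Abcg2-MDS/AML and 37832 in Control, the osteoblast list at 634 and 4609 CPM, the tendon list at 279 and 1176 CPM and the fibroblast list at 605 and 1518 CPM, and the part of these in the ratios was not tested. With the upper bounds on free RNA subtracted Col1a1 and Col3a1 in Abcg2-MDS/AML chondrocytes were at 0.

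Fibroblasts and tendon cells of Abcg2-MDS/AML were lower in nearly all of the genes. In fibroblasts, where 28.5% of genes were lower, 11.8% higher and the median was -0.26, Col3a1 was at 1719.9 CPM in Abcg2-MDS/AML and 6367 in Control (log2 ratio -1.89, -1.94 to -1.83). Col1a1 was at 1052 CPM in Abcg2-MDS/AML and 3119.8 in Control (-1.57, -1.64 to -1.49), and Col5a1 at 62.9 and 320.0 CPM (-2.34, -2.63 to -2.07). Col5a2 (-1.21) and Col5a3 (-1.62) were lower too, while Col1a2, at 2449 CPM in Abcg2-MDS/AML and 3564 in Control, differed by 1.46-fold and did not pass. The Col1a1 to Col1a2 ratio in these fibroblasts was 0.430 in Abcg2-MDS/AML and 0.875 in Control. After thinning, 49.6% of them in Abcg2-MDS/AML and 88.4% in Control held a Col1a1 molecule, and 59.4% and 94.0% a Col3a1 molecule. The median fibroblast held 0 and 4 UMIs of Col1a1 and 1 and 8 of Col3a1. For Col1a2 the shares were 84.8% and 95.3%. In tendon cells, where 21.5% of genes were lower and 17.9% higher, Col1a1 was at 689 CPM in Abcg2-MDS/AML and 4139 in Control (-2.59, -2.65 to -2.52) and Col5a1 at 30.8 and 149 CPM (-2.27, -2.60 to -1.96). Col1a2 (-1.73), Col3a1 (-1.71) and Col5a2 (-1.13) followed. Of thinned tendon cells 27.7% in Abcg2-MDS/AML and 67.2% in Control held a Col1a1 molecule, with medians of 0 and 3 UMIs. Markers of other types moved in both classes. In tendon cells the osteoblast list was at 3322 CPM in Abcg2-MDS/AML and 8425 in Control and the chondrocyte list at 3161 and 9585 CPM, while the tendon list was at 7915 and 3998 CPM. In fibroblasts the chondrocyte list was at 1763 CPM in Abcg2-MDS/AML and 4510 in Control, the MSC list at 4628 and 1686 CPM and the fibroblast list at 23632 and 15928 CPM. The part of these lists in the ratios was not tested.

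**Figure D5:**
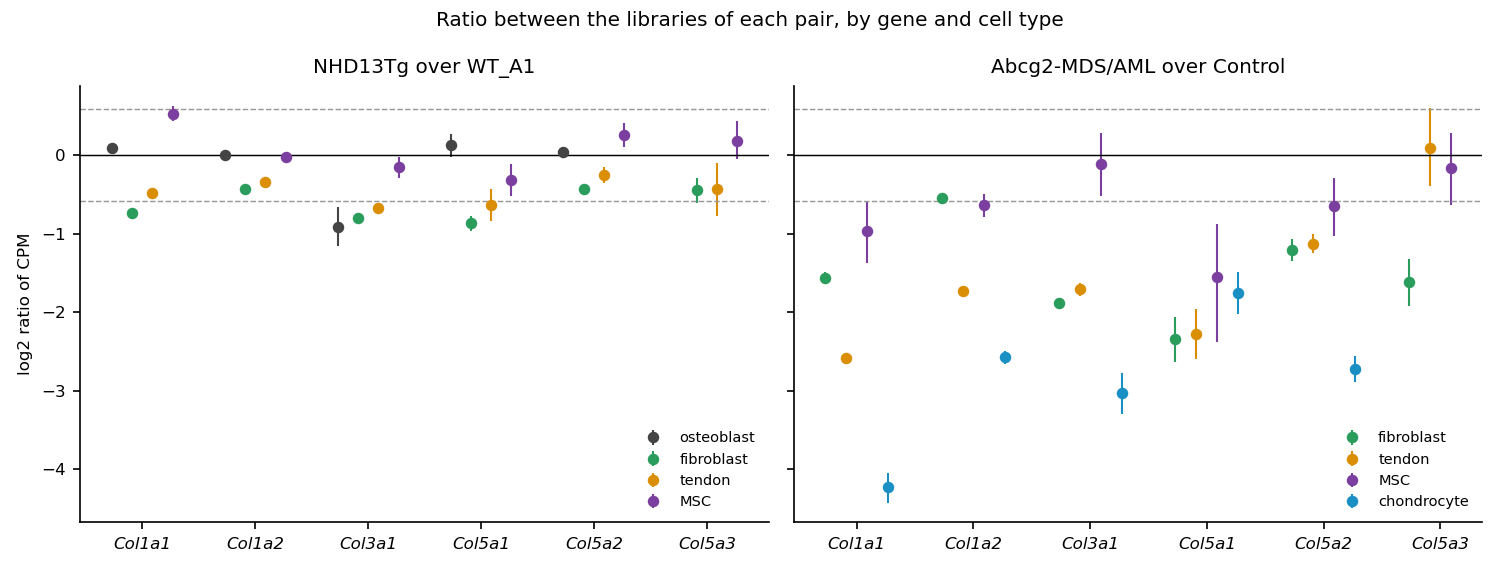
Log2 ratio of CPM within each pair of libraries, NHD13Tg over WT_A1 at the left and Abcg2-MDS/AML over Control at the right, by gene and cell type, for genes that reached 20 CPM in either. Bars are exact 95% intervals for counting error and dashed lines mark 1.5-fold. At the right 19 of 23 points lie below the lower dashed line with intervals that leave out 0, down to -4.23 for Col1a1 in chondrocytes.

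Col5a3 in tendon cells went against the others and depended on which cells were counted. It was at 26.7 CPM in Abcg2-MDS/AML and 25.1 in Control (log2 ratio 0.09, -0.40 to 0.60), and 1 cell held 55.1% of its UMIs in Abcg2-MDS/AML. Without the top 1% of cells by these genes the ratio was -1.12, and with cells thinned it was -1.25. In tendon cells with Tnmd or Kera it was -2.23, at 16.1 CPM in Abcg2-MDS/AML and 78.4 in Control, and in the rest it was 1.06, at 28.7 and 13.5 CPM.

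Classes of this pair were also split, by genes chosen after the data had been seen, and their makeup differed. Fibroblasts with Pi16 or Dpp4 were 17.7% of fibroblasts in Abcg2-MDS/AML and 9.91% in Control, the last being 23 cells. Tendon cells with Tnmd or Kera were 16.6% and 18.8% of their class, and chondrocytes with Matn3 49.6% and 55.7%. In each part of the fibroblasts 5 of the 6 genes were lower in Abcg2-MDS/AML and Col1a2 did not pass, and in each part of the chondrocytes 5 were lower and Col5a3 did not pass. In tendon cells all 6 were lower with Tnmd or Kera, and 5 were lower and Col5a3 higher without them. Shares over all genes are not given for these parts, so the counts cannot be set against them. In the whole classes 28.5% of genes were lower in fibroblasts, 32.2% in chondrocytes and 21.5% in tendon cells. Col3a1 was at 1229 CPM in Abcg2-MDS/AML and 6235 in Control in fibroblasts with Pi16 or Dpp4 (-2.34), and at 1839 and 6384 CPM in the other fibroblasts (-1.80). Col1a1 in chondrocytes with Matn3 was at 17.4 CPM in Abcg2-MDS/AML and 294 in Control (-4.07), and without Matn3 at 36.8 and 868 CPM (-4.56). In tendon cells with Tnmd or Kera Col1a1 was at 929 CPM in Abcg2-MDS/AML and 5931 in Control (-2.67), and in the others at 646 and 3753 CPM (-2.54).

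MSCs of this pair are the least certain, given their marker levels. Where 17.7% of 6601 genes were lower and 12.7% higher, Col1a1 was at 119.8 CPM in Abcg2-MDS/AML and 235 in Control (-0.96, -1.37 to -0.59), Col1a2 at 890.0 and 1386 CPM (-0.64), Col5a1 at 33.2 and 99.5 CPM (-1.55) and Col5a2 at 140.0 and 220.3 CPM (-0.65). Col3a1 (-0.11) and Col5a3 (-0.16) did not pass. Col1a1 turned to 0.97 when barcodes that met several type rules were kept, and it lost its call with free RNA subtracted (-0.12). Col1a2 lost its call at 1000 UMIs (-0.53), at 4000 UMIs (-0.41), with thresholds halved (-0.49) and with such barcodes kept (-0.02).

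Genes of collagen synthesis were more often lower than higher in this pair. In tendon cells 18 of 26 genes of the biosynthesis list considered were lower in Abcg2-MDS/AML and 0 higher, in chondrocytes 19 of 24 and 0, in fibroblasts 17 of 26 and 1, and in MSCs 11 of 27 and 2. The medians of the list were -0.92, -0.86, -0.83 and -0.45, beside -0.02, -0.31, -0.26 and -0.06 over all genes. The shares of all genes called lower were 21.5%, 32.2%, 28.5% and 17.7%. Serpinh1 was at 197 CPM in Abcg2-MDS/AML and 1014 in Control in fibroblasts (-2.37), at 159.1 and 669 CPM in tendon cells (-2.07), at 280.1 and 1267 CPM in chondrocytes (-2.18) and at 221 and 804 CPM in MSCs (-1.86). Lox went the other way, at 866 CPM in Abcg2-MDS/AML and 216 in Control in fibroblasts (2.00) and at 1064 and 299 CPM in tendon cells (1.83). In NHD13Tg 6 of 24 were lower in fibroblasts, where 3.53% of all genes were, and 3 of 27 in tendon cells, where 7.41% were. Serpinh1 was among them, at 704 CPM in NHD13Tg and 1431 in WT_A1 in fibroblasts (-1.02) and at 585 and 1225 CPM in tendon cells (-1.07). In osteoblasts of NHD13Tg 1 of 23 was lower, where 6.11% of all genes were, and in MSCs 2 of 25, where 7.98% were, so these counts are at the share over all genes.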

How the data were processed

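The 4 stromal libraries, 1 per group, were read from the deposited matrices. These hold whole-number counts of UMIs per gene and barcode that the authors did not normalize, made with Cell Ranger 3.1.0, with Seurat 3.2.3 also named, per the submitters' processing notes. Per the labels, libraries were made with the Chromium Next GEM 3' v3.1 kit and sequenced on a NextSeq 500. The genome build is not given in the sources used here. The 6 genes, the gene lists, the type rules and the tests were chosen with earlier results of these data known.

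A cell was a barcode with at least 2000 UMIs, 500 genes and at most 10% mitochondrial UMIs. Type thresholds in UMIs per 10000 were 10 (MSC), 100 (osteoblast), 15 (chondrocyte), 8 (fibroblast) and 30 (tendon), and barcodes that met several rules (715, 823, 162 and 222 in NHD13Tg, WT_A1, Abcg2-MDS/AML and Control) were left out. No doublet caller was run, and an upper limit of 3 times the median UMIs was an alternative. A type was used in a library with at least 20 cells. Blood-like barcodes had at least 50 UMIs per 10000 of 6 blood genes.

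Summed counts were tested with edgeR 4.0.16 in R 4.3.3 (quasi-likelihood, TMM scaling, filterByExpr, library as a block, 9 residual degrees of freedom, Benjamini-Hochberg over 11726 genes in each of 10 contrasts, threshold 0.05), a fit tested on simulated data. Standard errors are the log2 fold divided by the root of its F. DESeq2 1.42.0 was an alternative. Pair ratios added 0.5 to each count, with exact conditional binomial 95% intervals. Levels have exact Poisson intervals, and all intervals cover counting error only. Median UMIs per cell lay between 4186 and 5452. The bound on free RNA took barcodes of 1 to 100 UMIs as its makeup and gave it all of a gene pair that the type should lack, Bglap and Bglap2, or the Col9 genes for osteoblasts.

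Named genes were the 6, up to 4 genes per list and direction with the highest mean CPM among those called, and the 3 genes with the highest Pearson r to each of the 6, leaving out Gm and Rik symbols. Alternatives changed UMI and mitochondrial limits, type thresholds, overlap, scaling, filters, block, thinning and free RNA, and left out each library.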

Additional observations from a re-analysis of the deposited data

Results flagged for a closer look

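Cells that met no type rule were outside the comparisons above and held collagen I over the limit that a count of 0 allows, but at a lower level than free RNA did in each library. Col1a1 stood at 10658 CPM over 1488 such cells of NHD13Tg, 7409 CPM over 1613 of WT_A1, 941 CPM over 2950 of Abcg2-MDS/AML and 1639 CPM over 2787 of Control, where 3 counts would be 0.291, 0.239, 0.211 and 0.126 CPM. These levels were 0.607, 0.673, 0.963 and 0.672 times those of barcodes of 1 to 100 UMIs in the same libraries. By itself the Col1a1 level over all such cells does not separate their RNA from free RNA. By a split chosen after the data had been seen, 474, 457, 497 and 646 of these cells carried at least 20 UMIs per 10000 of the bone-forming genes Alpl and Ibsp, and they held 77.1%, 72.3%, 51.2% and 60.4% of the UMIs of the 6 genes among untyped cells. In these Alpl and Ibsp cells Col1a1 stood at 28293.5, 22229.5, 3856 and 7476 CPM in NHD13Tg, WT_A1, Abcg2-MDS/AML and Control. Free RNA held 17549, 11016, 976 and 2440.3 CPM of it in the same order, and the other untyped cells 2607, 1826, 356 and 588 CPM. Bglap and Bglap2, which bounded free RNA in other types, summed to 8211, 4510, 555 and 1495 CPM in free RNA. They summed to 1669, 1330, 128 and 484 CPM in the Alpl and Ibsp cells and 234, 156, 8.35 and 25.8 CPM in the other untyped cells. The part of free RNA in untyped cells was not tested. The ratio of Col1a1 to Col1a2 was 1.08, 1.09, 0.823 and 1.01 in the Alpl and Ibsp cells, and 0.987, 0.954, 0.411 and 0.763 in the other untyped cells.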

How the results depend on the processing

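No paired analysis was possible because each group holds 1 library. Over 16 alternatives the number of called differences between types lay between 41 and 52, beside 48, and leaving out a library gave 46 to 49. The 77 list genes tested in 10 contrasts gave 377 to 484 calls, beside 473, and 405 to 469 with a library left out. Lower combinations numbered 18 to 21 in Abcg2-MDS/AML, beside 19, and 4 to 8 in NHD13Tg, beside 6, over 12 alternatives. Scaling by library size alone moved the median of all genes by between -0.48 and 0.52, largest in MSCs over chondrocytes, and turned Col3a1 in osteoblasts over MSCs to -0.0086, Col1a1 in fibroblasts over tendon cells to 0.027, and Col1a1 and Col5a2 in MSCs over chondrocytes to 0.39 and 0.48. No type contrast called with all libraries reversed under any of these alternatives. Among uncalled ones, Col1a2 in fibroblasts over tendon cells turned to -0.096 without the library block, -0.016 at 4000 UMIs and -0.086 with thresholds halved, and ranged from -0.26 to 0.20 with a library left out. Col1a1 there turned to 0.039 with thresholds doubled and 0.11 with overlapping types kept, and ranged from -0.35 to 0.090 with a library left out. In MSCs over chondrocytes Col5a2 turned to 0.091 at 4000 UMIs, 0.071 and 0.12 with thresholds halved and doubled, 0.20 with overlapping types kept and 0.23 with free RNA subtracted, and ranged from -0.74 without Abcg2-MDS/AML to 0.83 without Control. Col1a1 in that contrast turned to 0.43 with thresholds halved, 0.998 with overlapping types kept and 2.42 with free RNA subtracted, and ranged from -1.01 without Abcg2-MDS/AML to 1.41 without Control, while Col5a1 ranged from -0.12 to 0.34. Col3a1 in osteoblasts over MSCs turned to -1.36 with free RNA subtracted and ranged from -0.045 without Control to 0.81 without NHD13Tg, and Col5a3 in osteoblasts over chondrocytes to 0.29 with overlapping types kept. The Abcg2-MDS/AML over Control ratio of Col1a1 in MSCs became 0.97 with overlapping types kept. Col3a1/Col1a1 became 1.08 in tendon cells of WT_A1 with overlapping types kept and 1.02 in MSCs of Control with free RNA subtracted, and Col5a1/Col1a1 became 1.26 in chondrocytes of Abcg2-MDS/AML without the top 1% of cells. The causes were not tested. Col5a3 in osteoblasts rests on 2 to 4 UMIs per library, out of 1899664 UMIs in NHD13Tg, 1255515 in WT_A1 and 591809 in Control. Its level there is low but imprecise.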
